A study of Mus musculus with 12 samples.

Results

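Nr1h4 encodes Fxr, the bile acid receptor, and lies on mouse chromosome 10. The genes described here are 9 of its neighbours there, chosen by symbol as a check on local effects of the knockout: Dram1, Gnptab, Chpt1, Spic, Arl1, Utp20 and Gas2l3 on one side of Nr1h4, and Scyl2 and Actr6 on the other. All 9 were found among the 16728 genes measured, and all 9 passed the filter on low counts. They lay 10.3 to 1090 kb from Nr1h4, closer than the few Mb that the choice allowed. The samples were primary hepatocytes of mice, and RNA was sequenced from 12 libraries, 3 in each of 4 groups. The groups were Fxr-/- cells (KO) under AC, KO cells under FAC, wild-type cells (WT) under AC and WT cells under FAC, each agent at 100 µM for 24 h in medium with serum. FAC and AC are not spelled out in the labels, the series title names iron overload, and both genotypes carry the strain label C57BL/6. The labels state neither how the Fxr allele was made nor in which strain's cells. An effect of losing Fxr and an effect of sequence carried along with the targeted allele therefore cannot be told apart for genes this close. Nothing in the labels tells whether the 3 libraries of a group had different animals or cultures as their source, so p-values measure only the spread between these samples.

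When a gene is disrupted, its neighbours can be affected through shared regulatory DNA or because a stretch of chromosome from the strain in which the allele was made stays with it through breeding. The neighbours of Nr1h4 share no single pathway. Spic is a transcription factor gene of iron-recycling macrophages, Utp20 and Actr6 encode nuclear proteins of ribosome assembly and histone exchange, Gas2l3 encodes a cytoskeletal linker, Chpt1 encodes an enzyme of phospholipid synthesis, and Arl1, Scyl2, Gnptab and Dram1 encode proteins of the Golgi, coated vesicles and lysosomes. The nearest gene, Gas2l3, is described first, then the genes of nuclear proteins, of phospholipid synthesis, and of lysosomes, the Golgi and vesicles.

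Nr1h4 itself (gene identifier 20186, chr10:89454234-89533645 in GRCm38, minus strand) was still read in the KO libraries. It had 9.35, 6.97 and 7.45 CPM in KO AC libraries, against 13, 15.6 and 13.1 CPM in WT AC libraries, where CPM is the authors' estimated reads scaled to a common TMM-scaled library total. Every KO library lay below every WT library of its treatment, and the log2 fold change was −0.81 ± 0.14 (SE) under AC (edgeR adjusted p = 0.000535) and −0.75 ± 0.16 under FAC (edgeR adjusted p = 0.00157). The counts cover the whole gene, so they do not check the knockout. Library totals ranged from 16464494 to 18335700 estimated reads, and the first principal component, with 59.2% of the variance, separated the KO from the WT libraries.

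The sequences just before the annotated starts of Nr1h4 and of the 5 neighbours that differed between genotypes are shown because a receptor lost from the cell could act there. They are the 250 bases before 1 start per gene in the RefSeq table for GRCm38.p6, written 5′ to 3′ on the gene's strand. For Nr1h4 and Dram1 that start lies inside the gene's span, 27 and 7.28 kb from its outer end, so the windows before their outermost starts are not shown. Capitals mark matches, on either strand, to the nuclear receptor half-site AGGTCA, to the CCAAT box or to TTTGAA, a cell-cycle promoter element.
Gas2l3, chr10:89443968-89444217, minus strand: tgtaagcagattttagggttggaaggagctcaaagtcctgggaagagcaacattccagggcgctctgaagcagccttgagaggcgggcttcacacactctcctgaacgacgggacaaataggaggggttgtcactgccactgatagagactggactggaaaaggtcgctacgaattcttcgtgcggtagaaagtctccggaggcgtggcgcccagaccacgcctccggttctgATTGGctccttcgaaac
Chpt1, chr10:88503971-88504220, minus strand: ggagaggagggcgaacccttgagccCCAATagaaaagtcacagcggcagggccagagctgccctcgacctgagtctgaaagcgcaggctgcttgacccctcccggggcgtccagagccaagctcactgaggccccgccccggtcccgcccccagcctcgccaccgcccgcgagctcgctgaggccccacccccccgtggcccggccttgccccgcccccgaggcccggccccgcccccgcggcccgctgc
Utp20, chr10:88826815-88827064, minus strand: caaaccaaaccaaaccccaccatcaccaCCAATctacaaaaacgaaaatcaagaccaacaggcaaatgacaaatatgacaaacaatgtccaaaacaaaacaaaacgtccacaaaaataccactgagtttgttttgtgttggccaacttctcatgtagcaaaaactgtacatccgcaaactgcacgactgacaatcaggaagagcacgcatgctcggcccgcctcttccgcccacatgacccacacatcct
Dram1, chr10:88357076-88357325, minus strand: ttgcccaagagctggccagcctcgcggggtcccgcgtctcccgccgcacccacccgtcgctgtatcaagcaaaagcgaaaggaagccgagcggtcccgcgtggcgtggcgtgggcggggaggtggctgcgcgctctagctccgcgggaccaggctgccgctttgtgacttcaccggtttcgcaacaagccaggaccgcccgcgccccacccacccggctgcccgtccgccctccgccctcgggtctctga
Spic, chr10:88683024-88683273, minus strand: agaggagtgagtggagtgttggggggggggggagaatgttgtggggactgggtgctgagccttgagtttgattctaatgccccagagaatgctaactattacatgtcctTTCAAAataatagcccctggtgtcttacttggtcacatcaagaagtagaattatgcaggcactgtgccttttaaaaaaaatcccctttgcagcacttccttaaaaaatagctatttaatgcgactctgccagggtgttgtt
Nr1h4, chr10:89506659-89506908, minus strand: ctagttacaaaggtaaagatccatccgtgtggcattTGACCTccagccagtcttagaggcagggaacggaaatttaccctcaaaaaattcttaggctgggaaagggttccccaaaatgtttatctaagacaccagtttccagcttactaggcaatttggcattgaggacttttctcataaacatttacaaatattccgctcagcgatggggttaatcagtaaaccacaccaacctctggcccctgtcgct
None of the 5 neighbours held the half-site in these windows, and Nr1h4 held it once, 214 bases before the start on the other strand. Among all 32851 windows of that length, 14% held the half-site, 33.8% the CCAAT box and 16% TTTGAA. The inverted repeat of the half-site's last 5 bases around 1 free base, the arrangement that Fxr and its partner RXR bind, was in 0.0335% of all windows and in none of these 6. Gas2l3, Chpt1 and Utp20 each held 1 CCAAT box, and Spic held 1 TTTGAA. A match is a run of letters and not a shown binding site, and more distant sequence was not searched.

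Between genotypes, 5 of the 9 neighbours differed under AC, and the same 5 differed in the same direction under FAC. The FAC comparison contrasts other libraries, but all 12 shared 1 fit with a common scaling, filter and estimate of spread. The 2 comparisons are thus not fully independent. Gas2l3 and Chpt1 were higher in KO cells, and Utp20, Dram1 and Spic were lower. Spic passed the filter on low counts only through WT libraries, so its inclusion already required a difference, and without it the count was 4 of 8 under both treatments. Of all tested genes, 21.7% were higher and 21.2% lower under AC, and 24.6% were higher and 24.9% lower under FAC. Calls were common everywhere: 42.9% of the 12275 tested genes were called under AC and 49.5% under FAC, so 5 of 9 (55.6%) stands near the background. The same way under both treatments, 31.4% of tested genes were called. For the mean of both treatments the 5 were called as well, against 59.4%. A called change of at least 2-fold under both treatments was rarer, at 7.48% of tested genes, and 2 of the 8 neighbours other than Spic had one, Gas2l3 and Dram1. With Spic counted, under AC alone, 3 of the 9 were called at 2-fold or more, against a background of 10.2%, and under FAC 4 of 9, against 12.3%. Without Spic only Gas2l3 and Dram1 remained under AC, and Gas2l3, Dram1 and Chpt1 under FAC. The neighbours were chosen with earlier results of these data known, so these shares only describe them. Under FAC, Dram1 (−1.01 ± 0.18) and Chpt1 (1.04 ± 0.11) lay just past 2-fold, and without KO FAC 6 the count was 2, with Dram1 at −0.90 and Chpt1 at 0.99. With any 1 library left out the count was 2 to 5 under FAC and 3 under AC, Spic included.

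**Figure D1:**
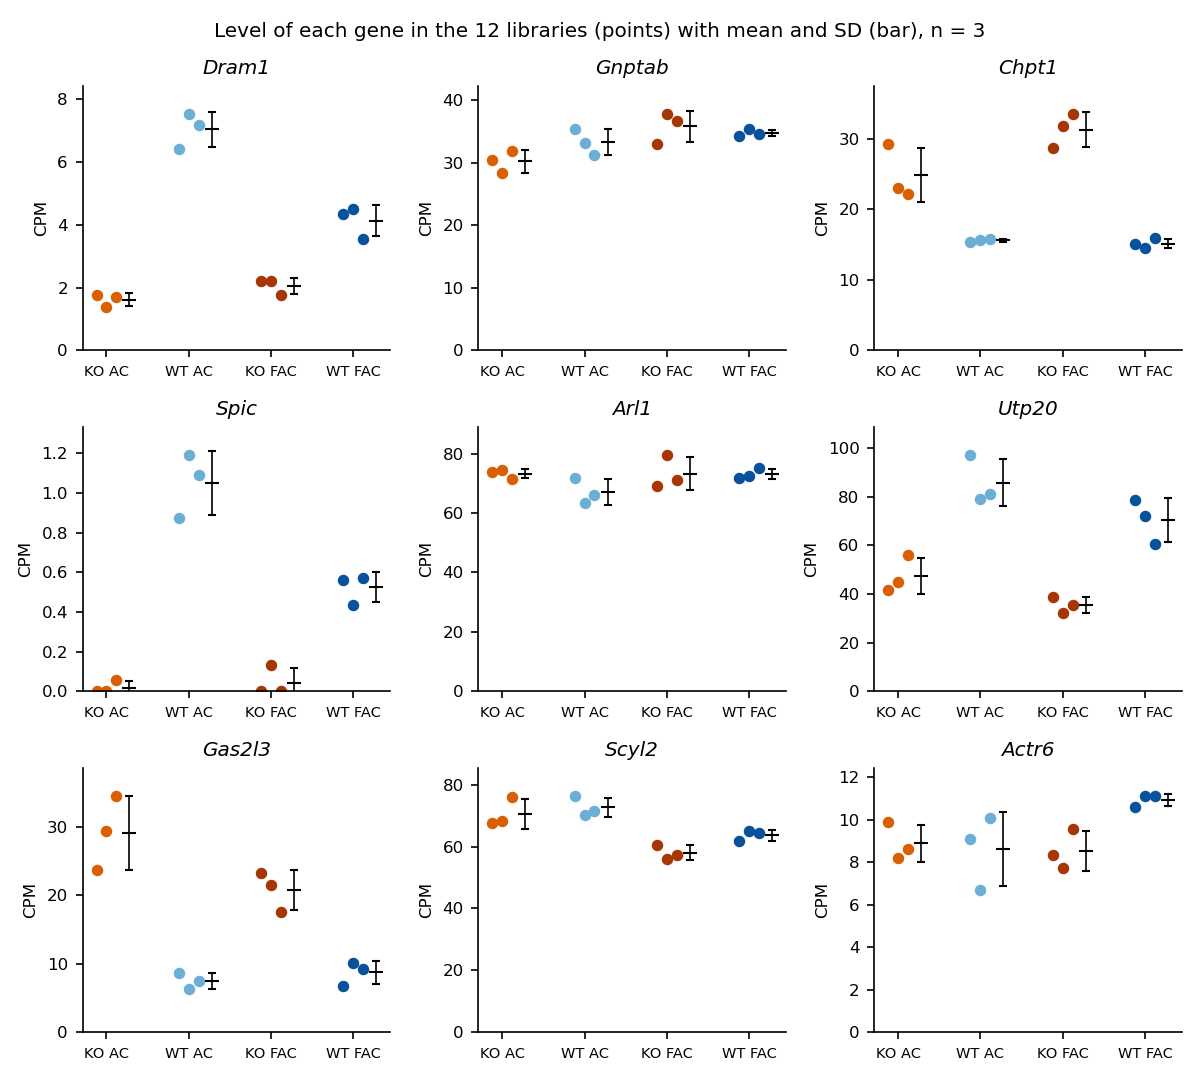
Level of each of the 9 neighbours in CPM (vertical axis, from 0) in the 12 libraries, with KO left of WT within AC and within FAC. Points are libraries and bars are the mean with SD (n = 3). Gas2l3 and Chpt1 are higher in KO, Dram1, Spic and Utp20 lower in KO, and the points of Gnptab and Arl1 overlap between genotypes.

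Gas2l3, a member of the Gas2 family that links actin and microtubules and acts in cytokinesis, is the neighbour nearest to Nr1h4 (gene identifier 237436, chr10:89408822-89443980, minus strand). It begins 10.3 kb beyond the end of Nr1h4 on the same strand. It had 23.6, 29.3 and 34.4 CPM in KO AC libraries, against 8.72, 6.27 and 7.5 CPM in WT AC libraries. Under FAC it had 23.3, 21.5 and 17.6 CPM in KO libraries, against 6.83, 10.1 and 9.29 CPM in WT libraries. All 6 KO libraries lay above all 6 WT libraries. The log2 fold change was 1.96 ± 0.18 (SE) under AC (edgeR adjusted p = 2.28e-06) and 1.25 ± 0.18 under FAC (edgeR adjusted p = 8.52e-05). The estimated counts of Gas2l3 were not whole numbers in 9 of 12 libraries, so part of its reads were shared with other transcripts by the authors' counting, and its level is uncertain to that extent.

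Other genes of the Gas2 family and of cytokinesis were more often lower than higher where they were called under AC. Of 11 tested genes on a list without Gas2l3, 1 was higher and 4 were lower in KO cells under AC, at a median log2 fold change of −0.59, against a median of −0.0033 over all genes. The 4 that fell were the DNA topoisomerase gene Top2a (−1.67 ± 0.38), the central spindle kinesin gene Kif23 (−1.46 ± 0.42), the anillin gene Anln (−1.24 ± 0.38) and Ect2, which encodes an activator of cytokinesis (−0.80 ± 0.27). All 4 were at low levels, between 0.245 and 1.5 CPM on average in KO AC libraries, against 0.69 to 2.61 CPM in WT AC libraries. Under FAC, 1 gene of the list was higher and 2 were lower, at a median of 0.07. Racgap1, which encodes the partner of Kif23, was the higher one (0.99 ± 0.27), and Top2a (−1.45 ± 0.43) and Kif23 (−1.42 ± 0.35) were lower. Under FAC, Kif23 averaged 0.454 CPM in KO and 1.21 CPM in WT libraries, and Top2a 0.441 and 1.24 CPM. Kif23 passed the filter on low counts mainly through WT libraries, and Top2a was near its limit in KO libraries. Their direction was thus in part favoured by the filter. The background was 21.7% higher and 21.2% lower under AC, and 24.6% and 24.9% under FAC.

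Utp20 encodes a large component of the small-subunit processome, which matures ribosomal RNA in the nucleolus (gene identifier 70683, chr10:88746607-88826814, minus strand, 627 kb from Nr1h4). It had 41.6, 44.9 and 55.9 CPM in KO AC libraries, against 97, 79.2 and 81.1 CPM in WT AC libraries. With FAC, its level was 38.9, 32.1 and 35.7 CPM in KO libraries, against 78.7, 72.1 and 60.6 CPM in WT libraries. No KO library reached the lowest WT library of either treatment. The log2 fold change was −0.85 ± 0.13 under AC (edgeR adjusted p = 0.000163) and −0.99 ± 0.13 under FAC (edgeR adjusted p = 3.98e-05).

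Of 29 tested genes on that list, spread over the genome, none was higher in KO cells under AC, 15 were lower and 14 were not called, at a median log2 fold change of −0.26. Under FAC, none was higher, 24 were lower and 5 were not called, at a median of −0.46, against −0.0112 over all genes. The share of all tested genes that were lower was 21.2% under AC and 24.9% under FAC. The box C/D ribonucleoprotein genes Nop56 and Nop58 fell by 0.87 and 0.77 on the log2 scale under AC (SE 0.11 each) and by 0.94 and 0.93 under FAC (SE 0.11 each). The processome genes Wdr43 (−0.89 ± 0.10) and Heatr1 (−0.84 ± 0.13) fell under FAC by amounts close to that of Utp20 (−0.99 ± 0.13). Under AC, Wdr3 (−0.63 ± 0.09) and Pdcd11 (−0.43 ± 0.12) fell.

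Actr6 encodes an actin-related protein of the SRCAP complex, which places the histone variant H2A.Z in chromatin (gene identifier 67019, chr10:89711966-89732319, minus strand, 178 kb from Nr1h4). It had 9.87, 8.19 and 8.61 CPM in KO AC libraries, against 9.11, 6.71 and 10.1 CPM in WT AC libraries, and these groups overlapped. In the FAC groups it had 8.35, 7.72 and 9.55 CPM in KO libraries, against 10.6, 11.1 and 11.1 CPM in WT libraries. The FAC groups did not overlap, yet the log2 fold change of −0.35 ± 0.15 missed the threshold (edgeR adjusted p = 0.0609), as did the 0.04 ± 0.15 under AC (edgeR adjusted p = 0.833). Of 12 tested genes of the list of SRCAP and H2A.Z exchange, 3 were lower under AC, Ruvbl2 (−0.56 ± 0.13), Ruvbl1 (−0.34 ± 0.11) and Ep400 (−0.31 ± 0.10). Under FAC, 1 was lower, Ep400 (−0.56 ± 0.10), and 1 was higher, Znhit1 (0.43 ± 0.08). That is no more than the background, 42.9% of all tested genes under AC and 49.5% under FAC.

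Spic encodes an ETS-family transcription factor known for the development of iron-recycling macrophages of the spleen (gene identifier 20728, chr10:88675269-88683023, minus strand, 771 kb from Nr1h4). Its estimated reads were 0, 0 and 1 in KO AC libraries, against 16, 22 and 20 in WT AC libraries. Under FAC they were 0, 2 and 0 in KO libraries, against 10, 8 and 10 in WT libraries. Spic was thus listed at 0 in 4 of 6 KO libraries and read in all 6 WT libraries, at 1.05 ± 0.16 CPM in WT AC and 0.525 ± 0.076 CPM in WT FAC libraries (SD, n = 3). It passed the filter on low counts only through the WT libraries. The ratio of summed reads, KO over WT and scaled for depth, was 0.018 under AC (1 read against 58; 95% interval 0.000449 to 0.105). Under FAC it was 0.0781 (2 reads against 28; 95% interval 0.00901 to 0.31). These exact intervals cover counting error only. Its calls by edgeR are given no p here, since the filter had in part fixed them.

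Marker genes of other liver cells differed between genotypes in both directions. Among macrophage markers, Adgre1 averaged 0.323 CPM in KO AC and 0.1 CPM in KO FAC libraries, against 2.23 CPM in WT AC and 0.713 CPM in WT FAC libraries. Marco and Lyz2 were likewise lower in KO cells, at log2 fold changes of −2.75 ± 0.43 and −3.05 ± 0.46 under AC and −2.94 ± 0.69 and −2.49 ± 0.47 under FAC. Of the 11 listed macrophage markers, 10 were measured and 5 were tested, of which these 3 were lower under each treatment. Adgre1, Marco and Lyz2 had 17, 17 and 22 reads over the KO AC libraries and 5, 4 and 23 over the KO FAC libraries. They passed the filter on low counts mainly through WT libraries, so being tested already favoured a lower level in KO cells. Cd68, a lysosomal gene at 387 CPM or more in every group mean, was higher (0.71 ± 0.09 and 0.27 ± 0.09), and Csf1r was not called under either treatment (edgeR adjusted p = 0.0781 and 0.0503). Clec4f, a marker of Kupffer cells, had 0 reads in all KO libraries, 3 in all WT AC and 1 in all WT FAC libraries, and Timd4 and Cd163 had at most 1 read in any group. Because of Cd68 the summed level of the list was 556 to 689 CPM in KO AC libraries and 729 to 864 CPM in KO FAC libraries, against 352 to 429 CPM in WT AC libraries and 655 to 706 CPM in WT FAC libraries. All 4 tested markers of stellate cells and fibroblasts were lower in KO cells, and their list summed to 0.344 to 0.524 CPM in KO AC and 0.262 to 0.699 CPM in KO FAC libraries, against 7.09 to 8.02 CPM in WT AC and 4.55 to 4.97 CPM in WT FAC libraries. Each of the 4 had at most 11 reads over the libraries of a KO group and passed the filter only through WT libraries. Their shared direction was thus in part fixed by the filter. Of 6 tested markers of sinusoidal endothelial cells, 2 were higher and 3 lower under each treatment. Stab2 (1.34 ± 0.19 and 1.40 ± 0.19) and Oit3 (0.79 ± 0.11 and 0.56 ± 0.11) were higher. Pecam1 (−1.52 ± 0.21 and −2.44 ± 0.21), Cdh5 (−1.82 ± 0.20 and −2.95 ± 0.21) and Kdr (−2.15 ± 0.45 and −3.21 ± 0.43) were lower. Kdr had only 12 and 10 reads over the KO AC and KO FAC libraries. The endothelial list summed to 36.4 to 40.8 CPM in KO AC and 41.7 to 45.7 CPM in KO FAC libraries, against 26.3 to 32.5 CPM in WT AC and 38.4 to 45.2 CPM in WT FAC libraries. Of 4 tested markers of cholangiocytes, none was higher and 1 was lower under AC, and 2 were higher and 1 lower under FAC. The lower one was Spp1, at 52.2 CPM in KO AC against 361 CPM in WT AC, and 82.4 CPM in KO FAC against 337 CPM in WT FAC libraries. Krt19 (1.59 ± 0.22) and Sox9 (0.97 ± 0.20) were the higher ones under FAC. Because of Spp1 the cholangiocyte list summed to 92.4 to 104 CPM in KO AC and 149 to 165 CPM in KO FAC libraries, against 385 to 403 CPM in WT AC and 343 to 387 CPM in WT FAC libraries. No lymphocyte or neutrophil marker was tested. In these bulk samples, fewer cells of a type and less RNA per cell cannot be told apart, and the part of these markers in the difference of Spic was not tested. Of 9 hepatocyte markers, 7 were higher and 1 was lower in KO cells under each treatment. Over all tested genes, 21.7% were higher and 21.2% lower under AC, and 24.6% and 24.9% under FAC.

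Genes of haem and iron handling and macrophage factors did not share a direction. Of 9 tested genes on that list, none was higher and 2 were lower under AC, the iron exporter gene Slc40a1 (−0.92 ± 0.19) and the biliverdin reductase gene Blvrb (−0.42 ± 0.07). Under FAC, 2 were higher and 3 were lower. The haem oxygenase gene Hmox1 was higher (0.93 ± 0.18), and Slc40a1 (−0.66 ± 0.18), Blvrb (−0.28 ± 0.06) and the stress regulator gene Nfe2l2 (−0.57 ± 0.10) were lower. The background was 42.9% of all tested genes called under AC and 49.5% under FAC.

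Chpt1 encodes cholinephosphotransferase, which completes phosphatidylcholine in the last step of the Kennedy pathway (gene identifier 212862, chr10:88469513-88503970, minus strand, 950 kb from Nr1h4). It had 29.3, 23.1 and 22.2 CPM in KO AC libraries, against 15.4, 15.7 and 15.8 CPM in WT AC libraries. Under FAC it had 28.7, 31.8 and 33.5 CPM in KO libraries, against 15.1, 14.5 and 15.9 CPM in WT libraries. The 6 WT libraries lay close together, and every KO library was above them. The log2 fold change was 0.67 ± 0.11 under AC (edgeR adjusted p = 0.000283) and 1.04 ± 0.11 under FAC (edgeR adjusted p = 4.49e-06). Chpt1 overlaps 3724 bases of Sycp3 on the other strand, and since it is not stated whether counting used strand, reads there could be assigned to either gene. Sycp3, a meiotic gene, had few reads, 29 in all KO AC and 33 in all KO FAC libraries, against 0 in all WT AC and 6 in all WT FAC libraries.

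Several other genes of phosphatidylcholine synthesis were also higher in KO cells. Of 11 tested genes on that list, 5 were higher and 1 was lower under AC, and 4 were higher and 2 lower under FAC. Over all tested genes, 21.7% were higher and 21.2% lower under AC, and 24.6% and 24.9% under FAC. Pemt, the methyltransferase of the parallel route from phosphatidylethanolamine, had a log2 fold change of 1.08 ± 0.12 under AC and 1.80 ± 0.12 under FAC. The ethanolamine branch genes Etnk2 (1.25 ± 0.10 and 1.55 ± 0.10) and Pcyt2 (0.72 ± 0.07 and 1.04 ± 0.07) were higher as well. Chka, the choline kinase gene at the start of the pathway that Chpt1 completes, fell by 0.44 ± 0.07 under AC and by 0.63 ± 0.07 under FAC on the log2 scale.

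Dram1 encodes a lysosomal membrane protein that p53 induces and that promotes autophagy (gene identifier 71712, chr10:88322801-88364359, minus strand, 1090 kb from Nr1h4). It had 1.78, 1.38 and 1.69 CPM in KO AC libraries, against 6.43, 7.52 and 7.17 CPM in WT AC libraries. With FAC, its level was 2.2, 2.22 and 1.75 CPM in KO libraries, against 4.35, 4.49 and 3.56 CPM in WT libraries. All 6 KO libraries lay below all 6 WT libraries. The log2 fold change was −2.12 ± 0.17 under AC (edgeR adjusted p = 6.05e-07) and −1.01 ± 0.18 under FAC (edgeR adjusted p = 0.00038). Dram1 overlaps 1339 bases of Washc3 on the other strand. Washc3, which encodes a subunit of an endosomal actin complex, went the other way, at 0.38 ± 0.09 and 0.33 ± 0.09.

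Other p53 target genes were mostly higher where they differed. Of 16 tested genes on that list, 5 were higher and 1 was lower under AC, and 7 were higher and 2 lower under FAC. The background was 21.7% of all tested genes higher and 21.2% lower under AC, and 24.6% and 24.9% under FAC. The cell-cycle inhibitor gene Cdkn1a had a log2 fold change of 0.86 ± 0.08 under AC and 0.92 ± 0.08 under FAC, and the stress cytokine gene Gdf15 had 1.02 ± 0.28 and 0.95 ± 0.28. Phlda3 (0.40 ± 0.08 and 0.71 ± 0.08) and Sesn1 (0.60 ± 0.22 and 0.69 ± 0.23) were also higher. Dram1, at −2.12 ± 0.17 and −1.01 ± 0.18, was lower beside them.

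Gnptab encodes the alpha and beta subunits of the enzyme that begins the mannose 6-phosphate tag on lysosomal enzymes (gene identifier 432486, chr10:88379134-88447324, plus strand, 1007 kb from Nr1h4). It had 30.4, 28.3 and 31.9 CPM in KO AC libraries, against 35.4, 33.2 and 31.2 CPM in WT AC libraries. In the FAC groups it had 33, 37.7 and 36.7 CPM in KO libraries, against 34.3, 35.3 and 34.5 CPM in WT libraries. The genotypes overlapped under both treatments. The log2 fold changes of −0.14 ± 0.08 and 0.05 ± 0.08 did not pass the test (edgeR adjusted p = 0.177 and 0.65). Gnptab lies 14.8 kb from Dram1 and 22.2 kb from Chpt1, between a gene that was lower and a gene that was higher in KO cells. Of 19 tested genes of the mannose 6-phosphate and lysosomal enzyme list, 4 were higher and 2 lower under AC, and 6 were higher and 3 lower under FAC. Among these, Naglu (0.38 ± 0.10 and 0.59 ± 0.10) and Neu1 (0.31 ± 0.07 and 0.32 ± 0.06), both genes of lysosomal glycosidases, were higher under both treatments. Calls on the list did not exceed the background, 42.9% of all tested genes under AC and 49.5% under FAC.

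Arl1 encodes a small GTPase of the trans-Golgi that recruits tethering proteins (gene identifier 104303, chr10:88730920-88744094, plus strand, 710 kb from Nr1h4). It had 73.9, 74.4 and 71.5 CPM in KO AC libraries, against 71.9, 63.3 and 65.9 CPM in WT AC libraries. Under FAC it had 69.2, 79.4 and 71.2 CPM in KO libraries, against 71.8, 72.5 and 75 CPM in WT libraries. The genotypes overlapped under both treatments, with log2 fold changes of 0.13 ± 0.07 and 0.00 ± 0.07 (edgeR adjusted p = 0.157 and 0.976). The gap between Arl1 and the next gene, Utp20, is 2.51 kb, and Utp20 was lower in KO cells under both treatments. Arl1 overlaps 182 bases of Gm4925 on the other strand. Of 16 tested genes of trans-Golgi tethering, 3 were lower under AC, and 3 were higher and 7 lower under FAC. Arfgef1, which encodes an activator of Arf GTPases, was lower under both treatments (−0.43 ± 0.12 and −0.62 ± 0.12). Over all tested genes, 42.9% were called under AC, a larger share than on this list, and 49.5% under FAC.

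Scyl2 encodes a pseudokinase of clathrin-coated vesicles (gene identifier 213326, chr10:89638720-89686317, minus strand, 105 kb from Nr1h4). It had 67.5, 68.1 and 75.9 CPM in KO AC libraries, against 76.2, 70.1 and 71.5 CPM in WT AC libraries. With FAC, its level was 60.6, 56.1 and 57.3 CPM in KO libraries, against 61.7, 65 and 64.4 CPM in WT libraries. The groups overlapped under AC and were separate by a narrow margin under FAC. Neither log2 fold change passed the test, at −0.04 ± 0.07 and −0.13 ± 0.07 (edgeR adjusted p = 0.64 and 0.116). Of 15 tested genes of the clathrin list, 2 were higher and 3 lower under AC, and 3 were higher and 3 lower under FAC. The clathrin heavy chain gene Cltc (−0.38 ± 0.07 and −0.58 ± 0.07) was lower and the light chain gene Cltb (0.33 ± 0.12 and 0.71 ± 0.12) higher under both treatments. Calls were no more frequent here than over all tested genes, where 42.9% were called under AC and 49.5% under FAC.

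Library by library, 5 of the 9 neighbours did not overlap between genotypes under AC, and 7 of 9 under FAC, against 53% and 59.1% of all tested genes. With 3 libraries against 3, the exact 2-sided permutation test of 1 gene cannot go below 0.1.

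Per length, as FPKM in the authors' table, the neighbours spanned a wide range of levels. Arl1 was the highest in every group, at 103 ± 0.8 FPKM in KO AC and 97.1 ± 7.3 in KO FAC libraries, against 101 ± 9 in WT AC and 106 ± 2 in WT FAC libraries (SD, n = 3). Scyl2 followed in 3 groups, and in KO FAC libraries it stood at 14.7 ± 0.3 FPKM beside Chpt1 at 17.5 ± 1.4 FPKM. In KO AC libraries the order below Scyl2 (19.4 ± 1.8) was Chpt1 (14.4 ± 2.0), Gnptab (6.01 ± 0.39), Actr6 (5.63 ± 0.55), Utp20 (5.42 ± 0.92), Gas2l3 (4.37 ± 0.87), Dram1 (0.667 ± 0.067) and Spic (0.0167 ± 0.0289). In WT AC libraries it was Utp20 (10.4 ± 1.4), Chpt1 (8.8 ± 0.38), Gnptab (7 ± 0.5), Actr6 (5.84 ± 1.23), Dram1 (2.87 ± 0.07), Gas2l3 (1.2 ± 0.21) and Spic (0.98 ± 0.14). The SD ranges of Gnptab, Actr6, Utp20 and Gas2l3 in KO AC libraries each overlapped that of the next in order. In WT AC libraries those of Utp20 and Chpt1, of Gnptab and Actr6, and of Gas2l3 and Spic overlapped.

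Along the chromosome, called and uncalled neighbours were interspersed, and so were the directions. From the far side towards Nr1h4 the order was Dram1 lower, Gnptab not called, Chpt1 higher, Spic lower, Arl1 not called, Utp20 lower and Gas2l3 higher. On the other side of Nr1h4, Scyl2 and Actr6 were not called. The neighbours were set beside every other tested gene within 2 Mb of Nr1h4. Nr1h4 left out, 21 genes were tested there, 9 of them the neighbours, and 13 (61.9%) were called under AC, 8 higher and 5 lower. Under FAC, 13 (61.9%) were called as well. Over all tested genes the share was 42.9% under AC and 49.5% under FAC. Among the 33 genes 2 to 5 Mb away it was 51.5% and 75.8%, the latter above that within 2 Mb. The 13 of each treatment include Spic and Sycp3, which passed the filter on low counts through a single genotype only. Calls of at least 2-fold made up 28.6% of these 21 genes under AC and 33.3% under FAC, against 10% and 12% of the 11634 tested genes on other chromosomes. On single other chromosomes that share ranged from 8.02% to 13.4% under AC and from 10% to 14.5% under FAC. Over chromosome 10 without Nr1h4 it was 12.7% and 16%, the latter above every other chromosome. More than 20 Mb from Nr1h4 on chromosome 10 it was 12.1% and 15.3%. Of the genes 2 to 5 Mb away, 12.1% and 18.2% of 33 were called at 2-fold or more. With 21 genes these shares rest on 6 and 7 genes, of which the neighbours are 3 and 4. Spic and Sycp3 were at or near 0 reads in one genotype, and without them the shares were 21.1% (4 of 19) and 26.3% (5 of 19). The 4 under AC still include Slc17a8, which had 18 reads in all WT AC libraries. No test of the window was made.

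**Figure D2:**
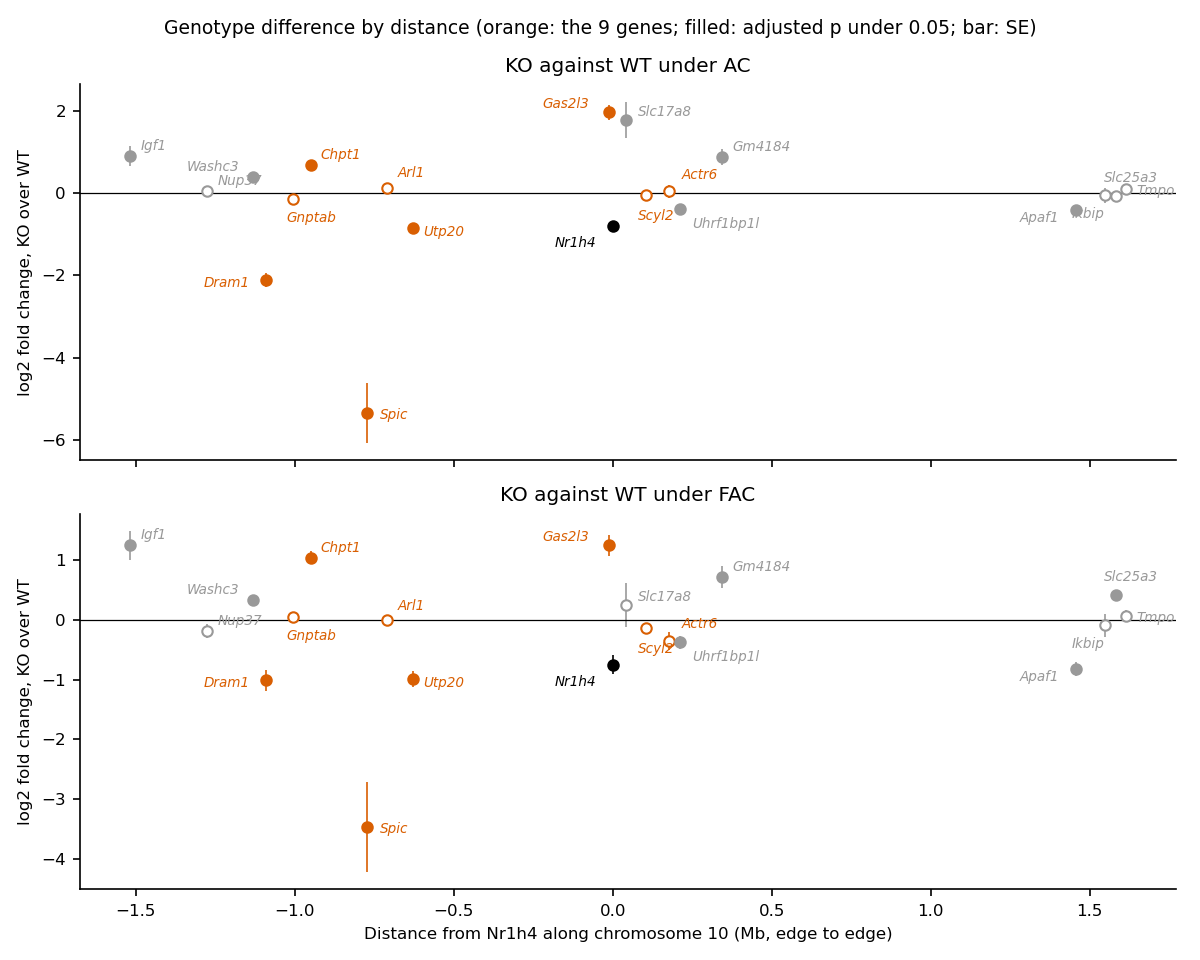
Log2 fold change, KO over WT, with SE (vertical axis) against distance from Nr1h4 in Mb (horizontal axis) under AC (top) and FAC (bottom), for the 9 neighbours in orange, Nr1h4 in black and the other genes within 2 Mb that the text names in grey. Filled points had an adjusted p under 0.05. Sycp3, with 0 reads in WT AC libraries, is not drawn, and the value of Spic rests on 1 and 2 KO reads. Genes that are higher, lower and not called lie side by side.

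Of the other 12 tested genes in the window, 8 (66.7%) were called under each treatment, against 42.9% (AC) and 49.5% (FAC) of all tested genes. Among them, the growth factor gene Igf1 was higher in KO cells (0.89 ± 0.24 and 1.25 ± 0.24), as were Gm4184 (0.87 ± 0.20 and 0.72 ± 0.19) and Washc3. Sycp3 is also among the 8, but it passed the filter on low counts only through KO libraries. Its calls as higher were thus in part fixed by the filter. Slc17a8, 40.4 kb from Nr1h4 and on the side away from Gas2l3, was higher under AC (1.78 ± 0.44, edgeR adjusted p = 0.00571) and not called under FAC (0.25 ± 0.37, edgeR adjusted p = 0.593). Its call under AC rests on few reads, 60 in all KO AC against 18 in all WT AC libraries. Slc25a3 was called under FAC (0.41 ± 0.06) and not under AC (−0.08 ± 0.06). Apaf1 (−0.41 ± 0.10 and −0.82 ± 0.11) and Uhrf1bp1l (−0.40 ± 0.11 and −0.37 ± 0.11) were lower under both treatments. Nup37, Ikbip and Tmpo were not called under either.

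**Figure D3:**
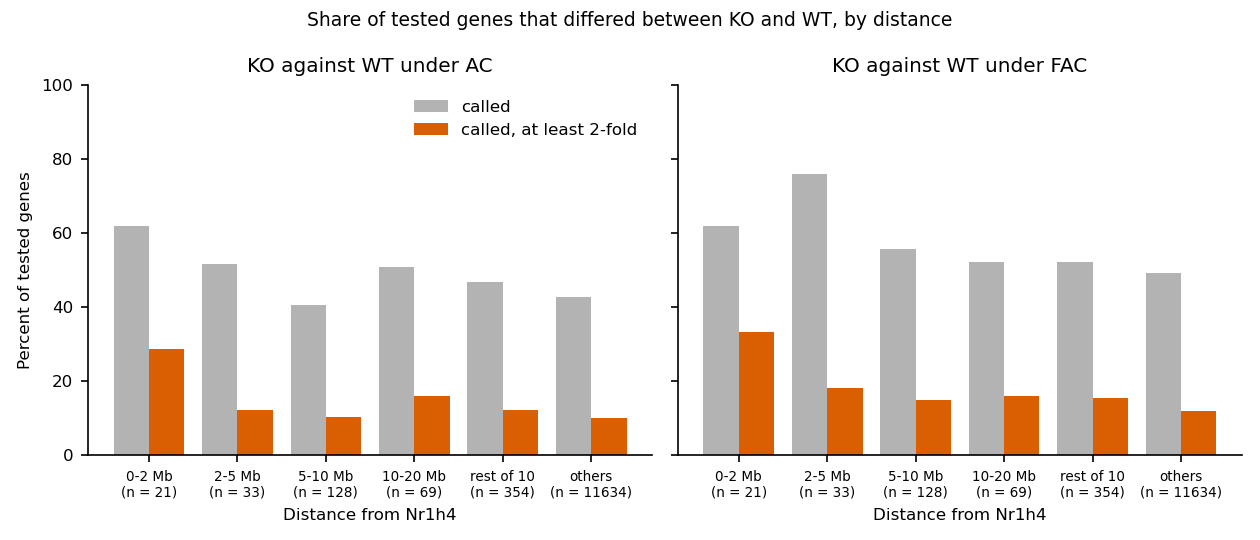
Percent of tested genes (vertical axis) called between KO and WT, in grey, and called with at least a 2-fold change, in orange, by distance from Nr1h4 under AC (left) and FAC (right), with the number of tested genes under each bar pair. The orange bars are 28.6% and 33.3% within 2 Mb and 10% and 12% on other chromosomes.

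The second question was whether FAC changed the neighbours. In KO cells 5 of the 9 were called between FAC and AC, against a background of 29.6% of tested genes. Gnptab (0.25 ± 0.08) and Chpt1 (0.33 ± 0.11) were higher under FAC, and Gas2l3 (−0.49 ± 0.17), Utp20 (−0.42 ± 0.13) and Scyl2 (−0.28 ± 0.07) were lower, where 15% of tested genes were higher and 14.6% lower (edgeR adjusted p = 0.035, 0.0307, 0.0421, 0.0284 and 0.00792). None reached a called change of 2-fold, which 3.97% of tested genes did. The KO FAC and KO AC libraries did not overlap for 4 of the 9, against 38.8% of tested genes. This count was sensitive to single libraries. It was 2 without KO AC 2 or without KO AC 3, and 1 without KO FAC 5 or without KO FAC 6. It was also 1 when only the KO groups were fitted. These fits called 23%, 19.3%, 21.1%, 25.3% and 17.9% of all tested genes, in that order. Of the 5, Scyl2 was called under all 18 alternatives run, and each of the others was lost under at least 4. The KO libraries were themselves divided on the third principal component (7.42% of the variance), with KO AC 1, KO FAC 5 and KO FAC 6 on one side and the other 3 on the other. The part of that division in these calls was not tested.

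In WT cells 1 of the 9, Dram1, was called between FAC and AC, against a background of 17.2%. It was lower under FAC, as were 8.55% of tested genes, at −0.77 ± 0.15 (edgeR adjusted p = 0.00427), with all 3 FAC libraries below all 3 AC libraries. Spic had 28 reads in WT FAC against 58 in WT AC libraries, a ratio of 0.498 (exact 95% interval 0.305 to 0.795, counting error only), and the groups did not overlap, but the test did not call it (edgeR adjusted p = 0.101). The macrophage markers Adgre1 and Marco were lower under FAC in WT cells (−1.64 ± 0.29 and −1.70 ± 0.38). Cd68 was higher (0.80 ± 0.09), and Lyz2 (−0.40 ± 0.35, edgeR adjusted p = 0.473) and Csf1r (0.24 ± 0.63, edgeR adjusted p = 0.838) were not called. The part of these markers in the level of Spic was not tested. Scyl2 (−0.19 ± 0.07, edgeR adjusted p = 0.0721), Actr6 (0.34 ± 0.14, edgeR adjusted p = 0.127) and Utp20 (−0.28 ± 0.12, edgeR adjusted p = 0.14) were not called. Gnptab, Chpt1, Arl1 and Gas2l3 had values between −0.04 and 0.22. Libraries of the 2 treatments did not overlap for 5 of the 9, against 43.2% of tested genes.

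**Figure D4:**
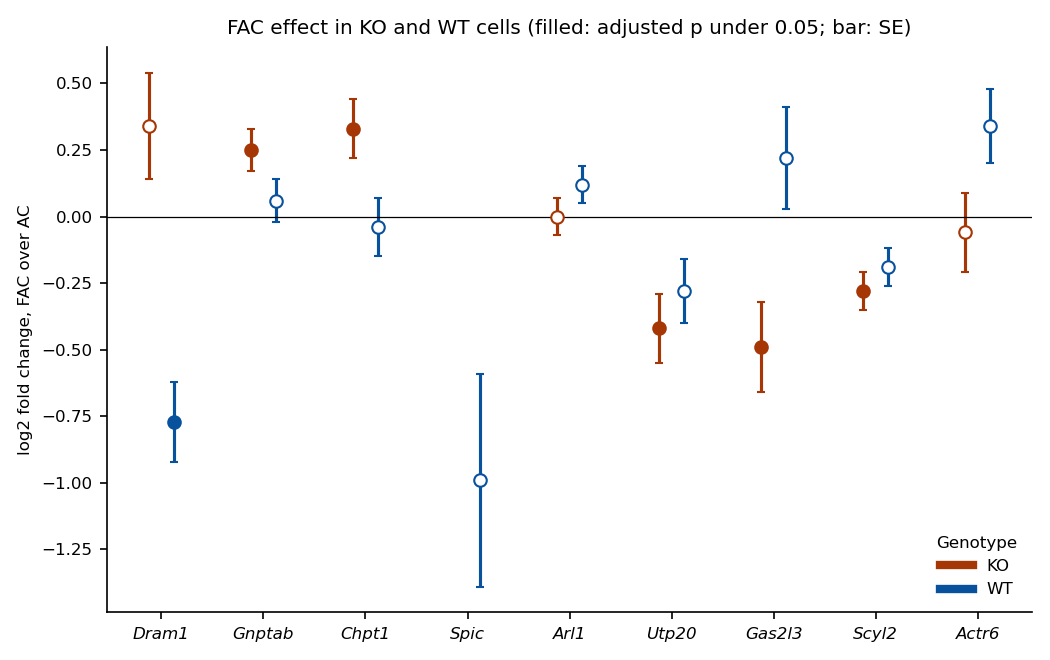
Log2 fold change, FAC over AC, with SE (vertical axis) for each of the 9 neighbours in KO cells (red-brown, left of each pair) and WT cells (blue, right). Filled points had an adjusted p under 0.05. Spic in KO cells, with 2 reads under FAC and 1 under AC, is not drawn. Dram1 is the only called gene in WT, and 5 genes are called in KO.

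A call in one genotype and not in the other does not show that the effects differ, so the difference of the FAC effects was tested. It was called for 1 of the 9, Dram1, against a background of 3.15% of tested genes. FAC had a log2 effect on Dram1 of 0.34 ± 0.20 in KO cells (not called, edgeR adjusted p = 0.209) and −0.77 ± 0.15 in WT cells, a difference of 1.11 ± 0.25 (edgeR adjusted p = 0.0335). The gap of Dram1 between genotypes was thus narrower under FAC. Without 1 library the adjusted p ranged from 0.0289 to 0.0864, and the difference was lost without KO AC 2, KO AC 3 or KO FAC 5, without WT AC 2 or WT AC 3, and without any single one of the WT FAC libraries. For Gas2l3 the difference was −0.71 ± 0.25 (edgeR adjusted p = 0.145) and for Chpt1 0.37 ± 0.15 (edgeR adjusted p = 0.203). The remaining 6 had adjusted p-values from 0.322 to 0.74 by edgeR.

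The genes most like each called neighbour over the 12 libraries, by Pearson correlation of log2 CPM, were on other chromosomes in 14 of 15 cases, where 94.8% of all tested genes lie. The libraries share genotype and treatment, so these values describe the pattern and carry no p. Gas2l3 was most like Nup62cl (r = 0.980), Igf2bp2 (0.973) and Rhou (0.971). Chpt1 was most like the dihydropteridine reductase gene Qdpr (0.994), the intestinal fatty acid-binding protein gene Fabp2 (0.993) and the cytochrome gene Cyp2d22 (0.992). Utp20 was most like the chromatin remodeller gene Smarcc1, Anapc1 and Map4k4 (0.984 each). Dram1 was most like the thrombin receptor gene F2r (0.973), Klhl5 (0.970) and Dnajb5 (0.964). Spic was most like Il3ra (0.980), Prep (0.975) and Ttyh3 (0.974), of which Prep is on chromosome 10. Among the neighbours themselves, r was 0.96 between Dram1 and Spic, −0.95 between Chpt1 and Utp20 and −0.93 between Dram1 and Gas2l3.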

How the data were processed

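RNA of primary mouse hepatocytes was measured in 12 libraries, 3 in each of 4 groups taken from the labels. Libraries were prepared for a BGISEQ-500, per the labels' protocols. The submitters' processing notes name RSEM and the builds mm10 and GRCm38.p6. Versions, aligner and strand setting are not given in the sources used here. Unscaled estimated counts for every gene were deposited, and the authors also deposited FPKM and TPM values, which are scaled by gene length and library total. Their deposited group means of counts served only to check which libraries they averaged.

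Estimated counts were rounded, scaled by TMM and tested in R 4.3.3 with edgeR 4.0.16 (robust quasi-likelihood, 4 groups in 1 fit). The filter filterByExpr, with a minimum count of 10, left 12275 genes and removed 4453. Benjamini-Hochberg adjustment covered all tested genes, and calls needed an adjusted p under 0.05. An SE is the absolute log2 fold change over the square root of the F statistic. The biological coefficient of variation was 10.8%. The contrasts were KO against WT under AC, under FAC and for the mean of both treatments, FAC against AC in each genotype, and the difference of the FAC effects. Ratios of few reads carry exact 95% intervals for counting error. Library totals were 16464494 to 18335700 estimated reads, so 3 reads equal 0.1623 to 0.1962 CPM. Positions and promoter windows are RefSeq's for GRCm38.p6, and 16629 of 16728 gene identifiers matched. The transcribed base stretch after each printed window was found in a GENCODE transcript of the gene.

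The neighbours and all lists were chosen with earlier results of these data known. The rule for named genes took the 9 neighbours, Nr1h4, the tested genes within 2 Mb, at most 4 called genes per list with the largest change, and the 3 genes most like each called neighbour. A gene within 2 Mb that the rule names is not reported here, though it is included in the counts. The CCAAT box and TTTGAA were added after the values were seen. Alternatives were other scaling factors, no filter or a filter on FPKM, DESeq2 1.42.0, limma 3.58.1 on log2(FPKM + 1), on log2(FPKM + 0.1) and on TPM, a fit of the compared groups alone, a fit without trend, factors without Mup genes, the replicate number as a block, other windows, and libraries left out. The TPM alternative and the counts past 2-fold with a library left out were chosen after seeing the data. The main edgeR fit was tested on simulated data for each contrast, and the alternative fits were not. The simulated data changed a far smaller share of genes than was called between genotypes. They therefore do not check the scaling for differences this broad.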

Additional observations from a re-analysis of the deposited data

Results flagged for a closer look

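The FAC effect differed between genotypes for Dram1, by 1.11 ± 0.25 on the log2 scale (KO minus WT, edgeR adjusted p = 0.0335), as given above.

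Slc25a3, the mitochondrial phosphate carrier gene, lies in the same stretch of chromosome 10, and its FAC effect differed by 0.49 ± 0.08 (edgeR adjusted p = 0.00749). It had 513, 524 and 520 CPM in KO FAC libraries and 371, 351 and 331 CPM in KO AC libraries, a called rise of 0.56 ± 0.06. In WT cells it had 398, 387 and 387 CPM under FAC and 355, 381 and 379 CPM under AC, and 0.07 ± 0.06 was not called (edgeR adjusted p = 0.416).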

How the results depend on the processing

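The genotype calls of Gas2l3, Chpt1, Utp20 and Dram1 kept their direction and their side of the threshold under every alternative run, 19 under AC and 19 under FAC. Spic did so in all 18 alternatives per treatment that kept it, and the filter on FPKM removed it. Because the filter on low counts had in part fixed the Spic calls, that count is no support for them. Log2 fold changes under AC ranged from 1.28 to 2.09 for Gas2l3, from 0.54 to 0.75 for Chpt1, from −0.99 to −0.76 for Utp20 and from −2.20 to −1.22 for Dram1. The added TPM values called 8 of the neighbours under FAC and 8 for the mean of both treatments, where 5 each were called above. TPM also called more of all tested genes, 56.1% under FAC and 64.7% for the mean, against 49.5% and 59.4% in the main fit. Leaving out 1 library gave 5 called neighbours under AC, 5 to 6 under FAC and 5 to 6 for the mean. Neighbours called at 2-fold or more, Spic included, were 3 under AC and 2 to 5 under FAC with a library left out. That alternative was chosen after seeing the data.

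For FAC in WT cells the neighbours called were 3 rather than 1 with FPKM at a pseudocount of 1 or 0.1, with TPM and with the compared groups alone, and 1 whichever single library was left out. Of all tested genes, the main fit called 17.2%, FPKM 17.2% and 17.1%, TPM 20.6% and the compared groups alone 27.3%. For FAC in KO cells the neighbours called were 3 rather than 5 with TPM and 1 with the compared groups alone, and 1 to 5 with a library left out. There the main fit called 29.6% of all tested genes, TPM 38% and the compared groups alone 17.9%. For the difference of the FAC effects the neighbours called were 2 rather than 1 with FPKM and with TPM, 3 without KO AC 1 and KO FAC 4, and 0 to 2 with a single library left out. The main fit called this difference for 3.15% of all tested genes, FPKM for 4.76% and TPM for 4.02%. Without KO AC 1 and KO FAC 4 it was 15.7%. The cause of these shifts was not tested.

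Same-numbered KO and WT libraries did not vary together (correlations of their deviations from −0.142 to 0.208), so the numbers gave no sign of pairing across genotypes. Pairing of AC with FAC libraries within a genotype was not examined. With the replicate block, the neighbours called between genotypes were 5 under AC, under FAC and for the mean, as without it, and 0 rather than 1 for the difference. The block lowered the share of all tested genes called for the difference from 3.15% to 0.684%. No sign changed with the block among these.

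Signs changed for values that were not called above, most of them near 0 except for Spic. For Arl1, KO against WT was −0.005 with TPM under AC, and under FAC −0.01 without a filter, −0.13 with FPKM at either pseudocount and −0.20 with TPM, the last called (limma adjusted p = 0.0388). For the mean it was −0.04 with FPKM at either pseudocount and −0.10 with TPM. For Arl1 under FAC in KO cells it was 0.01 with median-of-ratios factors, with the FPKM filter and with DESeq2, 0.06 with KO AC 1 and KO FAC 4 left out, and 0.03 with KO AC 1 and KO FAC 6 left out. For Actr6, KO against WT under AC was −0.03 with FPKM at either pseudocount, −0.07 with TPM and −0.04 without KO AC 1 and either KO FAC 4 or KO FAC 6, and FAC in KO cells was 0.06 without KO AC 1 and KO FAC 4. For Gnptab, KO against WT under FAC was −0.04 with FPKM at either pseudocount and −0.10 with TPM, and FAC in WT cells was −0.06 with TPM. With 1 library left out, values ranged from −0.11 to 0.17 for Actr6 between genotypes under AC, from −0.06 to 0.05 for Arl1 under FAC, from −0.06 to 0.05 for Arl1 and from −0.14 to 0.03 for Actr6 under FAC in KO cells, from −1.88 to 2.76 for Spic under FAC in KO cells, and for the difference of the FAC effects from −0.89 to 3.75 for Spic and from −0.23 to 0.0029 for Utp20. Depth limits Spic most, with at most 22 reads in a library.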
